A study of Mus musculus with 4 samples.

Results

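Ccl3, Ccl4, Ccl5 and Xcl1, the chemokines that activated CD8+ T cells are best known to secrete, were described in single virus-specific CD8+ T cells from the spleen of mice infected with LCMV. The members were chosen by their symbols. All 4 were found among the 27998 genes in the counts, and they were read in 24893 cells, of which 23346 were in T cell clusters. Mixed bone marrow chimeras on the C57bl/6 background had been made from WT (CD45.1) and Bcl3-/- (CD45.2) marrow in equal parts, given to sub-lethally irradiated Rag1-/- hosts, so that the host has no T or B cells of its own and cells of both genotypes met the same infection in 1 animal. On day 8 after LCMV Armstrong infection, GP33 tetramer-positive CD8+ T cells, which recognize a peptide of the viral glycoprotein, were sorted by CD45 allele, and 1 library for each genotype was made from each of 2 chimeras. The libraries are called WT1 and KO1 (taken as chimera 1) and WT2 and KO2 (taken as chimera 2), where KO is Bcl3-/- and n = 2 per genotype. The p-values of the fits rest on the spread between these libraries together with a spread shared across genes. Bcl3 is deleted in the germline of the Bcl3-/- donors, in every cell type, and Bcl-3 is a nuclear IkappaB protein that works together with NF-kappaB. The comparison of genotypes is meant to ask what the loss of Bcl-3 changes in the T cells themselves. All WT cells carry CD45.1 and all Bcl3-/- cells carry CD45.2. The loss of Bcl-3 and any other difference between these donors therefore cannot be told apart.

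The libraries held 21193300 (WT1), 20358780 (WT2), 22922219 (KO1) and 22672343 (KO2) UMIs, each UMI standing for 1 captured transcript. Barcodes were taken as cells when 500 or more genes were detected and mitochondrial UMIs made up no more than 10%, which gave 4941, 8092, 5366 and 6494 cells with a median of 3571, 2019, 3620.5 and 2948 UMIs in the same order. WT2 was therefore the shallowest library per cell, and shares of cells with a UMI were compared after each cell had been thinned to 1000 UMIs. Between 37 and 63 cell barcodes were shared by any pair of libraries, against 36.0 to 71.3 given by the product of their cell numbers. Bcl3 itself was read at 33.2 (WT1), 108 (WT2), 27.6 (KO1) and 86.6 (KO2) CPM, which are UMIs scaled to the same total in each library. Its 3′ tags thus remained in the Bcl3-/- libraries and differed more between the chimeras than between the genotypes. Where the deletion lies relative to the counted 3′ end is not given in the sources used here, so this gene does not check the labels. The sort was mostly T cells: the summed level of 5 T cell markers (Cd8b1 the most abundant) was 5648, 5393, 5971 and 6016 CPM, while B cell markers summed to 2164 to 2366 CPM and myeloid markers to 2470, 2275, 3387 and 3664 CPM. All genes of these 3 lists had UMIs in all 4 libraries.

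Chemokines are small secreted proteins that direct the movement of leukocytes through G protein-coupled receptors. Ccl3, Ccl4 and Ccl5 (MIP-1α, MIP-1β and RANTES) are CC chemokines, which attract T cells and myeloid cells. Xcl1 (lymphotactin) is a C chemokine that attracts cross-presenting dendritic cells through Xcr1. In CD8+ T cells, Ccl5 transcripts are known to accumulate and persist after priming, whereas Ccl3, Ccl4 and Xcl1 are transcribed in bursts after contact with antigen.

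The 3 CC chemokines lie close together on chromosome 11 of GRCm38 (GENCODE vM21), and all 4 members are protein coding with 3′ ends in different places. Ccl5 (ENSMUSG00000035042) is at chr11:83525778-83530518 on the minus strand, Ccl3 (ENSMUSG00000000982) at chr11:83647844-83649355 on the minus strand, and Ccl4 (ENSMUSG00000018930) at chr11:83662584-83664683 on the plus strand. Ccl3 and Ccl4 are thus divergent neighbors with 13228 bp between them, and 117325 bp separate Ccl5 from Ccl3. Xcl1 (ENSMUSG00000026573) is at chr1:164931644-164935527 on the minus strand. It overlaps Gm20743 on the plus strand, which had 0 UMIs in the cells of all 4 libraries and shares 51 of the 474 50-base words of the Xcl1 transcript. The other 3 members overlap no annotated gene. The coding sequences of Ccl3, Ccl5 and Xcl1 are shown because they tell CC chemokines from the C chemokine: cysteine codons are in capitals, and the adjacent pair that gives CC chemokines their name is at codon 34 of Ccl3 and at codon 33 of Ccl5, whereas in Xcl1 the only adjacent pair is at codon 12, in the signal peptide, and the later cysteines stand alone. Each starts at the start codon and is taken from the GENCODE transcripts. Ccl3 and Ccl5 run to the stop codon, and of the 345 bases of Xcl1 the first 300 are shown, which hold all 4 of its cysteine codons.
Ccl3: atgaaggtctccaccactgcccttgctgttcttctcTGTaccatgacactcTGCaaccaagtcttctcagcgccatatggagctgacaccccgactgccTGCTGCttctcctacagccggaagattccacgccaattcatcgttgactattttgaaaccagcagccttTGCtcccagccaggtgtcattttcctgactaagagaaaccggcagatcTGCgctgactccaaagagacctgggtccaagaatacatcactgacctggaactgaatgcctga
Ccl5: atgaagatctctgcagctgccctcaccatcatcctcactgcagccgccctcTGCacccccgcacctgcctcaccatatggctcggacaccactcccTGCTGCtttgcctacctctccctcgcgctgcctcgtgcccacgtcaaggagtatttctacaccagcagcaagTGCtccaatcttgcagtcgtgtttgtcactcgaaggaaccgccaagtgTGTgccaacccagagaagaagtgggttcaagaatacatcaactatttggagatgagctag
Xcl1: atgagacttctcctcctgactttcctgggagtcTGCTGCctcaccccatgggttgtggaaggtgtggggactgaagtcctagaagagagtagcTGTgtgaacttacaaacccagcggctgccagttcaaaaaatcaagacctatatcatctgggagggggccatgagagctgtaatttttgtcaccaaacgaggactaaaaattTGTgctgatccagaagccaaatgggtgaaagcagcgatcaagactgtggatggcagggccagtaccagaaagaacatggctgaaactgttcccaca
Apart from the 51 words that Xcl1 shares with Gm20743, no 50-base word of a member's transcripts was found in a transcript of another gene.

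For Xcl1, the member with the largest genotype difference described further on, the 250 bases before its RefSeq start (GRCm38.p6, chr1:164935523-164935772, minus strand, 5′ to 3′) are shown, with the only match to 4 searched motifs in capitals.
Xcl1 promoter: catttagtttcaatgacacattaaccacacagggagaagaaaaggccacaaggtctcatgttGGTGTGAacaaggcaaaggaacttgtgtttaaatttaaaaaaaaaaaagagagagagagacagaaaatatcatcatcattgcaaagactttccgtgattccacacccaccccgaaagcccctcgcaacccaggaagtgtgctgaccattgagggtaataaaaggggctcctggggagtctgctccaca
The motifs were searched on both strands, and the share of the 32851 promoter windows of this length that hold each is given as background. The AP-1 letters TGANTCA were found in 6.75% of windows. The T-box letters TCACACC are held by 3.33%. A TATA box, written TATAAA, occurs in 12.4%, and a short kappaB pattern (a run of 3 guanines and a run of 2 cytosines, with 5 bases of any kind between them) in 45.8%. The match is to the T-box letters, on the strand opposite to the gene, 188 to 182 bases before the start. The Ccl3 window (chr11:83649379-83649628, minus strand) held no match to any of the 4 motifs. These matches are letters in a window and were not tested as sites.

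Ccl5 stood far above the other members and was found in nearly every T cell. UMIs of 3′ tags count molecules and need no correction for transcript length, so CPM can be compared between genes. Over T cells, Ccl5 was at 21619 (WT1), 38016 (WT2), 35774 (KO1) and 43643 (KO2) CPM, Ccl4 at 112, 120, 106 and 92.7 CPM, Ccl3 at 36.4, 37.3, 39.8 and 39.5 CPM, and Xcl1 at 8.17, 3.6, 0.605 and 1.18 CPM. The order Ccl5, Ccl4, Ccl3, Xcl1 held in all 4 libraries, with no overlap between neighbors. Ccl3 and Ccl4 were at similar levels in the 4 libraries, Ccl5 was lowest in WT1, and Xcl1 was higher in both WT libraries than in both Bcl3-/- libraries, as were 19.1% of all genes in T cells.

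**Figure D1:**
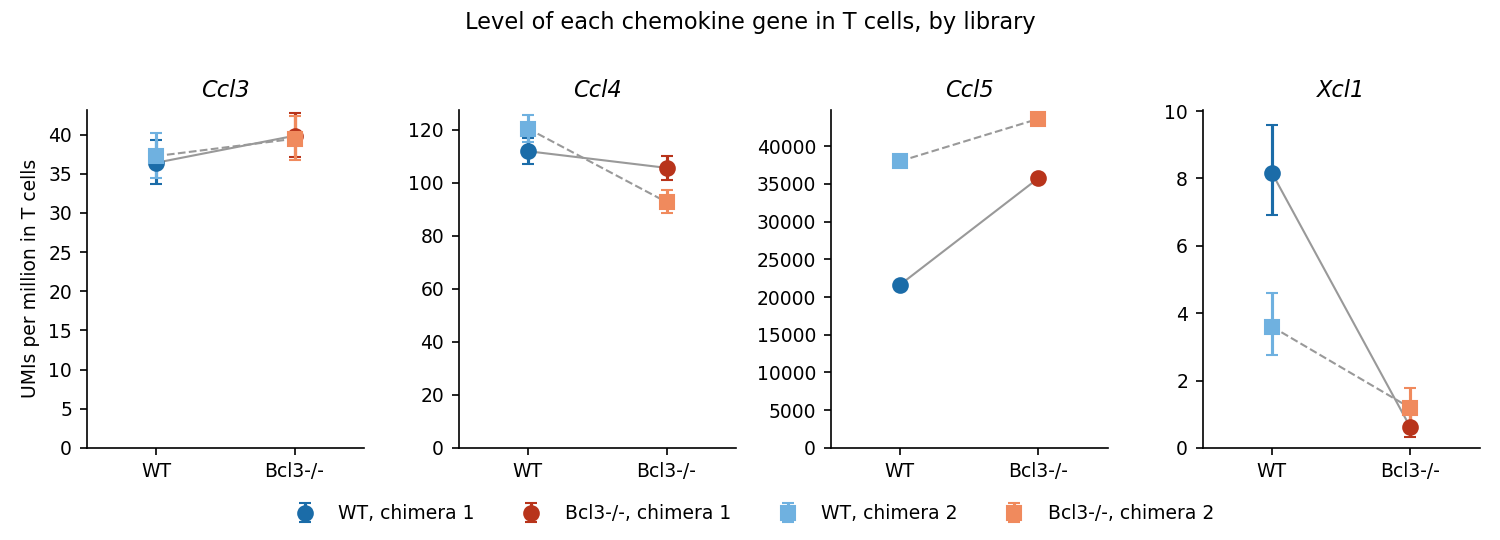
Level of each member over the T cells of a library, in CPM on a linear axis from 0, with 1 point per library, lines joining the 2 libraries of a chimera and bars for the 95% Poisson interval of the count. Ccl3 lies between 36.4 and 39.8 CPM and Ccl4 between 92.7 and 120 CPM, Ccl5 is lowest in WT1 at 21619, and Xcl1 lies at 8.17 and 3.6 in WT against 0.605 and 1.18 in Bcl3-/-.

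The share of T cells with a UMI at 1000 UMIs per cell followed the same order. It was 99.3, 99.9, 99.9 and 100% for Ccl5 (WT1, WT2, KO1 and KO2, as in the rest of the text), 7.08, 7.19, 7.80 and 7.25% for Ccl4, 2.69, 3.06, 3.05 and 3.23% for Ccl3, and 0.217, 0.213, 0.0607 and 0.116% for Xcl1, the latter being 10, 16, 3 and 7 cells. Without thinning the shares were 19.6, 13.5, 23.8 and 18.5% for Ccl4 and 8.76, 6.01, 9.33 and 8.14% for Ccl3, lowest in WT2, the library with the fewest UMIs per cell. B cell-like cells, which should lack these transcripts and had a median of 2297, 2025.5, 2901 and 2637 UMIs against 3557, 1999, 3610 and 2928.5 in T cells, held a Ccl4 UMI in 2.86, 0, 1.49 and 2.36% and a Ccl3 UMI in 0.952, 0, 0.746 and 0.787% of thinned cells. For both genes these shares were below those of T cells in each library. For Ccl5, 94.3 to 100% of B cell-like cells also held a UMI, and the share of cells with Ccl5 therefore does not mark cells that transcribe it, and its level was used instead. In B cell-like cells Ccl5 was at 4978, 7686, 9330 and 7705 CPM, which is 24.4, 21.7, 27.7 and 19% of its level over all cells. Barcodes with 1 to 50 UMIs, which hold free RNA, had Ccl5 at 19662, 32781, 32785 and 39101 CPM, close to the level over all cells of the same library. The other members were in free RNA as well, with Ccl4 at 107, 122, 106 and 137 CPM, Ccl3 at 53.3, 34.2, 48.1 and 52.0 CPM and Xcl1 at 9.33, 4.88, 2.01 and 2.08 CPM, the latter from 7, 3, 2 and 2 UMIs. No Xcl1 UMI was found in B cell-like cells of any library, where 3 UMIs would have been 6.34 to 9.94 CPM.

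The transcripts of Ccl3 and Ccl4 were concentrated in few cells, while those of Ccl5 were shared by nearly all T cells. The 1% of T cells with the most UMIs of Ccl4 held 46.9, 48.4, 32.5 and 30.6% of all its UMIs in T cells, and the corresponding share of Ccl3 was 40.7, 40.8, 45.2 and 42.9%. For Ccl5 it was 4.2, 3.63, 3.48 and 3.20%. Most T cells with Ccl4 held 1 UMI (681 of 908 in WT1), while the single highest cell held 221, 105, 202 and 102 UMIs. Between 28 and 42 T cells per library had 5 or more UMIs of Ccl4, and 10 to 21 had 5 or more of Ccl3. Ifng, the interferon gene of activated T cells, was less uneven, with a highest cell of 9, 18, 10 and 9 UMIs. Its variance over T cells was 1.47, 1.80, 1.35 and 1.31 times its mean, against 36.5, 20.7, 24.8 and 11.8 times for Ccl4. For Ccl5, whose level is far higher and graded across classes, it was 60.4, 38.2, 63.8 and 47.4 times. Xcl1 was the rarest member and, in WT1, rested on very few cells: 6 of 4625 T cells held 109 of its 151 UMIs. In WT2, 1 cell held 19 of 63 UMIs, in KO1 no cell had more than 2 of the 12 UMIs, and in KO2 the highest cell had 5 of 23 UMIs.

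**Figure D2:**
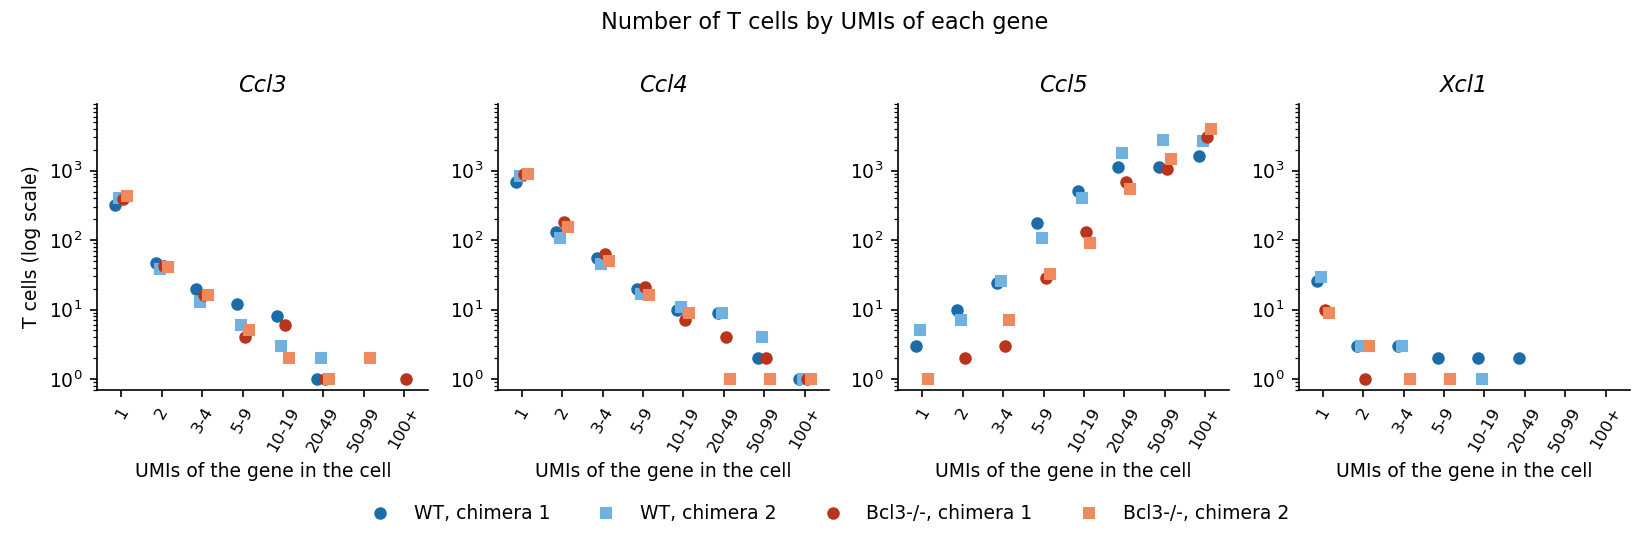
Number of T cells, on a log axis, by the number of UMIs of each member in the cell, with 1 point per library. Most cells with Ccl3, Ccl4 or Xcl1 hold 1 UMI, with a tail of few cells that reaches 221 UMIs for Ccl4. Most T cells hold 20 or more UMIs of Ccl5, and Xcl1 reaches 10 or more UMIs only in WT cells.

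T cell clusters of each library were put into 5 classes by marker lists that hold none of the members, and the members were left out of the genes used for clustering. The classes were terminal effector (led by Gzma, Cx3cr1, Zeb2, Klrg1 and S1pr5), interferon-stimulated (Ifit1, Isg15), cycling (Ccnb2, Rrm2, Mcm5), a class led by Tcf7, Ccr7, Id3 and Dapl1, genes of memory precursors and of naive T cells, which is called Tcf7-Ccr7 here, and an unnamed class of the remaining T cell clusters. The unnamed class held 52.2, 59.3, 57.5 and 53.2% of cells. It includes a cluster of 758 cells in KO1 and one of 881 cells in KO2 that are led by Tcf7 and Il7r but did not meet the naming rule. A further unnamed cluster of 296 cells, in KO1, has Cx3cr1, Klrg1 and Zeb2 among its leading genes. The KO1 cluster of the Tcf7-Ccr7 class has Cd4 and Tnfrsf4 among its leading genes, and the WT1 cluster has Tnfrsf4. Of the 321, 425, 125 and 200 cells of this class (WT1, WT2, KO1 and KO2), 304, 404, 108 and 191 held no Cd4 UMI. The size of the interferon-stimulated class depended on the clustering. In WT1 it held 534 cells, but 116 at resolution 0.5, 121 at resolution 1.2 and 258 with the members among the variable genes. In KO1 it held 359 cells, but 970 at resolution 0.5. The levels below are those of the main clustering. Since the classes were built from the same cells, levels by class are a description without a test.

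Ccl5 was graded across the classes in the same way in all 4 libraries. In terminal effectors it was at 54354, 69660, 69163 and 73544 CPM, in unnamed cells at 24554, 40567, 36589 and 44922 CPM, and in interferon-stimulated cells at 20548, 41259, 33455 and 37671 CPM. Cycling cells had 10792, 18848, 15536 and 22072 CPM and Tcf7-Ccr7 cells 8503, 15202, 11923 and 14759 CPM. Terminal effectors were highest and Tcf7-Ccr7 cells lowest in each library, with a ratio of 6.39, 4.58, 5.80 and 4.98 between them, and unnamed and interferon-stimulated cells exchanged places only in WT2. The median thinned terminal effector held 52, 69, 69 and 73 Ccl5 UMIs of its 1000 UMIs. Tcf7-Ccr7 cells were 1.71, 1.98, 1.28 and 1.92 times above B cell-like cells, and the part of free RNA in their Ccl5 level was not tested.

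Ccl3 and Ccl4 were less tied to a class. Ccl3 was at 45.0, 54.0, 51.1 and 57.3 CPM in terminal effectors, at 48.9, 42.2, 34.2 and 46.7 CPM in cycling cells, at 30.8, 36.2, 40.6 and 32.5 CPM in unnamed cells and at 26.8, 23.2, 40.6 and 46.8 CPM in interferon-stimulated cells. Terminal effectors were above unnamed and interferon-stimulated cells in every library, and the other pairs of these 4 classes changed order between libraries. Tcf7-Ccr7 cells were apart in WT2, KO1 and KO2, with 9.68, 7.81 and 11 CPM, near B cell-like cells (14.6, 0, 6.34 and 10.9 CPM), but were at 40.3 CPM in WT1. Ccl4 had its highest level in interferon-stimulated cells of WT1, KO1 and KO2, with 251, 180 and 130 CPM, while WT2 had 111 CPM there. In terminal effectors it was at 113, 133, 133 and 125 CPM, in unnamed cells at 92.0, 128, 110 and 90.9 CPM and in cycling cells at 82.3, 118, 56.9 and 60.1 CPM. Tcf7-Ccr7 cells had 22.6, 29.3 and 18.9 CPM of Ccl4 in WT2, KO1 and KO2, and again a high value, 144 CPM, in WT1. The cells with 5 or more Ccl4 UMIs were mostly unnamed (12, 26, 17 and 15 cells) or cycling (17, 11, 6 and 5 cells), and 4 such cells in the Tcf7-Ccr7 class were all from WT1.

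Xcl1 was ordered the other way, highest in Tcf7-Ccr7 cells and at or near 0 in terminal effectors. Tcf7-Ccr7 cells had 44.5, 15.1, 5.86 and 11 CPM, from 53, 14, 3 and 7 UMIs in 18, 11, 2 and 5 cells, and so held 53 of 151, 14 of 63, 3 of 12 and 7 of 23 Xcl1 UMIs of T cells while they were 6.50, 5.25, 2.33 and 3.08% of all cells. Terminal effectors had 0, 0, 1 and 0 UMIs. Unnamed cells were at 1.17, 1.95, 0.332 and 0.664 CPM, cycling cells at 9.99, 7.65, 0.561 and 1.55 CPM, and interferon-stimulated cells at 20.004, 2.21, 1.48 and 1.89 CPM. The Tcf7-Ccr7 class was thus highest in each library, 38.1, 7.72, 17.7 and 16.6 times above unnamed cells, on few UMIs in KO1. When cells were instead gated by at least 2 marker UMIs of each list, the class differences of Ccl3, Ccl4 and Ccl5 shrank and that of Xcl1 was lost (log2 ratio of Tcf7-Ccr7 over unnamed cells -0.14 ± 0.830 against 4.10 ± 0.941, SD over 4 libraries). These gates are much wider than the clusters and overlap: in WT1, 1832 cells met the Tcf7-Ccr7 gate and 2477 the terminal effector gate, against 321 and 407 cells in the clusters. A cell that meets both gates counts on both sides of a ratio of these classes and draws it toward equality, so the gated ratios do not test the cluster differences of Ccl3, Ccl4 and Ccl5. The unnamed cells of this gating met no gate.

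**Figure D3:**
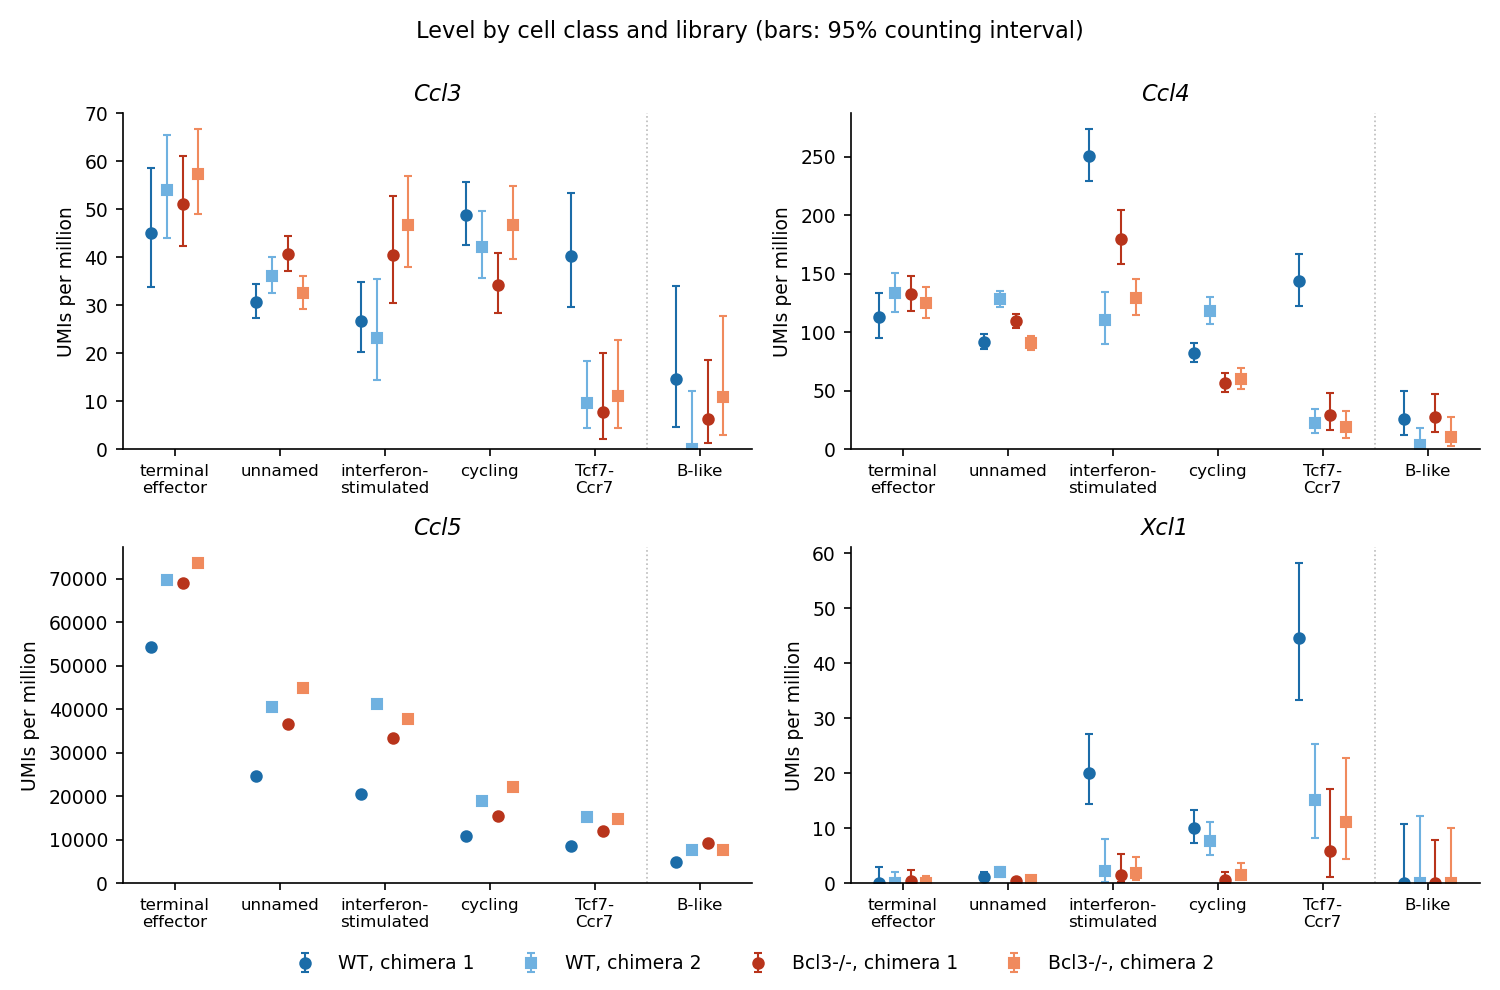
Level of each member by cell class and library, in CPM on linear axes from 0, with bars for the 95% Poisson interval of the count and B cell-like cells at the right of the dotted line. Ccl5 declines from terminal effector to Tcf7-Ccr7 cells in every library, Xcl1 is highest in Tcf7-Ccr7 cells, and the WT1 points of Ccl3 and Ccl4 in that class (40.3 and 144) stand above the other libraries.

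Ccl3 and Ccl4 were found in the same cells more often than the product of their shares gives. In T cells thinned to 1000 UMIs, 30, 35, 34 and 28 cells held both, where the product gives 8.78, 16.5, 11.8 and 14.1 cells. The ratio was 3.42 in WT1 (95% Poisson interval 2.31 to 4.88), 2.12 in WT2 (1.47 to 2.94), 2.89 in KO1 (2.00 to 4.03) and 1.98 in KO2 (1.32 to 2.86). It was above 1 in all 4 libraries, with WT and Bcl3-/- libraries overlapping and both libraries of chimera 1 above both of chimera 2. Put differently, 24.2, 15.2, 22.5 and 14.4% of cells with Ccl3 also held Ccl4, against 6.61, 6.94, 7.34 and 7.01% of cells without Ccl3. Within unnamed cells alone the ratio was 3.38, 2.51, 2.30 and 2.02, and in cycling cells 5.09, 3.23, 2.96 and 2.77, the latter from 8, 6, 2 and 2 cells and with an interval that included 1 in KO1 and KO2. In interferon-stimulated cells it was 1.79, 0, 4.60 and 2.95, with an interval above 1 in KO1 alone. In Tcf7-Ccr7 cells it was 12.0 from 3 cells in WT1. WT2, KO1 and KO2 held no Tcf7-Ccr7 cell with both genes. The product gave only 0.127, 0.032 and 0.0201 cells in them, so the ratio cannot be read there. In terminal effectors it was 1.88, 1.09, 2.49 and 1.30 with an interval that included 1 in WT1, WT2 and KO2. Cells of a library share free RNA and are not replicates, so the intervals cover counting error only.

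Ifng was found together with both. The ratio of observed cells to the product was 2.2, 1.85, 2.16 and 1.06 for Ifng with Ccl3 and 2.01, 1.54, 1.52 and 1.09 for Ifng with Ccl4. In both cases KO2 was the lowest library, and at this depth its interval was the only one that included 1. For Ifng with Ccl3 the interval also included 1 without thinning in KO1 (1.16, 0.935 to 1.42) and at 500 UMIs in WT1 (2.38, 0.772 to 5.55), and for Ifng with Ccl4 at 500 UMIs in WT1 (1.82, 0.875 to 3.36). Xcl1 was too rare for a firm value: Ccl4 was held by 4 of 10, 2 of 16, 0 of 3 and 2 of 7 thinned cells with Xcl1. The 6 WT1 cells with 5 or more Xcl1 UMIs had on average 26.2 UMIs of Ccl4, 4 of Ccl3, 1.33 of Ifng and 3.67 of Tnfrsf9 (4-1BB, induced by antigen receptor signals), against 0.407, 0.137, 0.225 and 0.164 in WT1 T cells without Xcl1. The only such cell of WT2 held 7 UMIs of Tnfrsf9 and 0 of Ccl3, Ccl4 and Ifng, and that of KO2 held 8 of Ccl3, 11 of Ccl4 and 0 of Ifng and Tnfrsf9. The 6 WT1 cells had fewer Ccl5 UMIs, 43.7 against 86.7, although their median total was higher, 6595 against 3552 UMIs. Over all T cells, Ccl5 itself was somewhat higher in cells with Ccl4 at equal depth, with a mean of 30.9 against 23.6 UMIs in WT1, 48.3 against 40.1 in WT2, 45.3 against 38.4 in KO1 and 55.8 against 45.4 in KO2. Within classes this did not always hold, as in terminal effectors of KO1 (65.0 against 68.9), cycling cells of WT2 (19.6 against 19.9) and Tcf7-Ccr7 cells of WT2 (14.9 against 15.2) and KO1 (8.75 against 10.7).

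**Figure D4:**
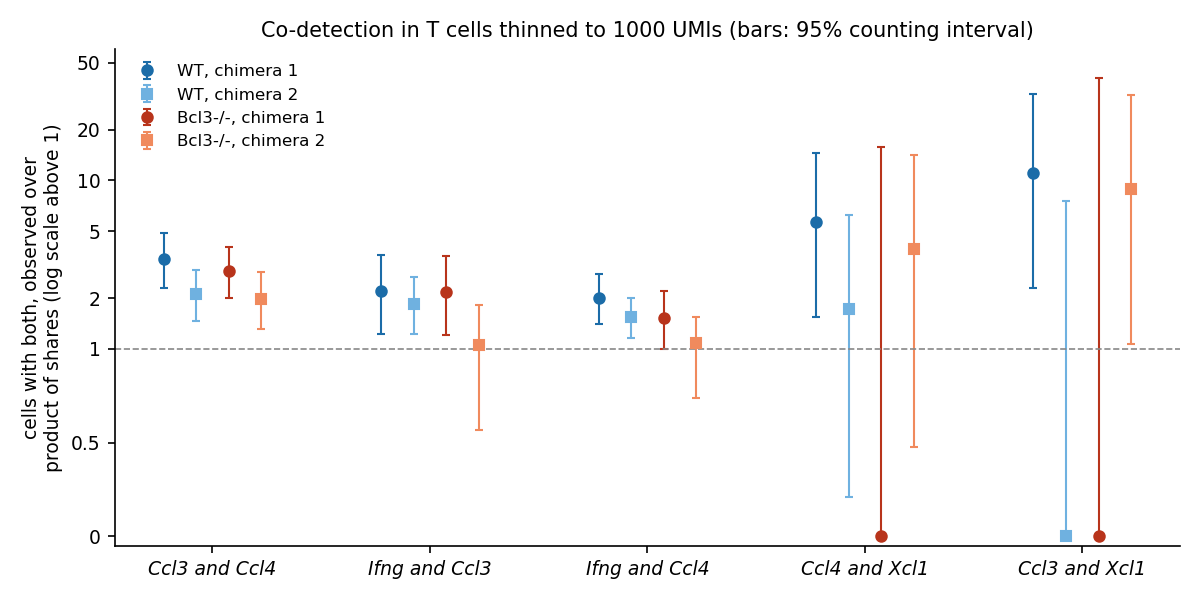
Cells with UMIs of both genes, observed over the product of the 2 single shares, in T cells thinned to 1000 UMIs, with 1 point per library, bars for the 95% Poisson interval of the observed count and a dashed line at 1 (axis linear up to 1 and log above it). Ccl3 with Ccl4 lies at 1.98 to 3.42 with each interval above 1, while pairs with Xcl1 rest on 0 to 4 cells.

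The genes most like each member were ranked by the Pearson correlation across thinned T cells of log(1 + UMIs), averaged over the 4 libraries, whose cells share library, depth and free RNA. Ccl3 and Ccl4 were each other's closest gene at 0.220 (0.172 to 0.306 in the libraries) among the 6191 genes compared, which were found in at least 1% of thinned T cells of every library. Xcl1 falls below that limit and was compared only as a member in its own right. After Ccl4, Ccl3 was followed by Ifng (0.059), Gzma (0.047), Ccl5 (0.044) and Pdcd1 (0.034), and after Ccl3, Ccl4 by Ifng (0.078), Ccl5 (0.074), Gzma (0.061) and Nfkbid (0.056), all of them weak. Ccl5 was most like Malat1 (0.311), a nuclear noncoding RNA, Gzma (0.302), Klf2 (0.234), Nkg7 (0.223) and Klrg1 (0.186). Xcl1 had no likeness that can be read at its level, with Ccl4 (0.095), Tyrobp (0.082), Ccl3 (0.067), Fcer1g (0.061) and Cd7 (0.054) at the top.

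Between the genotypes, compared within each chimera, Xcl1 was lower and Ccl5 higher in Bcl3-/- cells, and Ccl4 was slightly lower in T cells. Without pairing by chimera none of the members passed edgeR's test with TMM scaling on all 4 libraries, and Ccl3 passed in neither fit. Over all cells, Xcl1 was at 7.92 and 3.38 CPM (160 and 65 UMIs) in WT and at 0.550 and 1.07 CPM (12 and 23 UMIs) in Bcl3-/-. The groups did not overlap, as in 18.8% of all genes tested in this direction, and the level in Bcl3-/- was 0.0694 of WT in chimera 1 and 0.316 of WT in chimera 2. edgeR's quasi-likelihood test on the sums per library gave a log2 fold change of -2.83 (SE 0.503) with an adjusted p of 0.0892, and with the chimera as a block -2.74 (SE 0.370) with an adjusted p of 0.000383. In T cells alone the values were -2.74 (SE 0.496, adjusted p 0.111) and with the block -2.66 (SE 0.301, adjusted p 5.75e-11). The log2 ratio in T cells was -3.75 in chimera 1 and -1.60 in chimera 2, further apart than the blocked SE conveys. DESeq2 without the block gave an adjusted p of 3.73e-05 over all cells and 0.000118 over T cells. The call of Xcl1 therefore depends on whether the libraries are paired by chimera and on the tool, while its direction does not. In sums per library, fewer cells of a type and less RNA per cell cannot be told apart. Counting each cell at most once, 38 and 36 WT against 11 and 14 Bcl3-/- T cells held Xcl1, a log2 fold change of -1.68 (adjusted p 0.133, and 0.00141 with the block). This is smaller than over UMIs, where 6 WT1 cells weigh most. Without WT1, the fold change over UMIs was -2.00 in T cells (adjusted p 0.0930), and without WT2 it was -3.23 (adjusted p 0.0139). Over all cells, leaving out WT2 also gave a call (-3.34, adjusted p 0.0136), leaving out each other library did not, and scaling by library totals alone gave one as well (-2.8, adjusted p 0.0368).

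Ccl5 was at 20428 and 35467 CPM in WT and at 33653 and 40508 CPM in Bcl3-/- over all cells. The genotypes overlapped, since WT2 exceeded KO1, but Bcl3-/- was above WT within both chimeras, 1.65-fold in chimera 1 and 1.14-fold in chimera 2, as were 36.2% of all genes. Over all cells the log2 fold change was 0.40 (SE 0.289, adjusted p 0.559), and with the block 0.44 (SE 0.128, adjusted p 0.0462), and over T cells 0.41 (adjusted p 0.554) and 0.45 (adjusted p 0.000659). Its size rests on the WT libraries, since over T cells it was 0.070 without WT1 and 0.83 without WT2. Terminal effectors, the class with most Ccl5, were 8.24 and 12.3% of WT and 14.6 and 16.6% of Bcl3-/- cells. Ccl4 was at 112 and 114 CPM in WT and at 99.9 and 95.6 CPM in Bcl3-/-, without overlap (as in 18.8% of all genes) and with a log2 fold change of -0.22 (SE 0.0930, adjusted p 0.316, and 0.0631 with the block). In T cells it was -0.23 (adjusted p 0.415) and with the block -0.24 (SE 0.0766, adjusted p 0.0241). The number of T cells with a Ccl4 UMI moved the other way (log2 fold change 0.13). Ccl3 was at 38.182 and 35.6 CPM in WT and at 38.188 and 38.9 CPM in Bcl3-/-, where WT1 and KO1 are nearly equal, with a log2 fold change of 0.05 (SE 0.0945, adjusted p 0.857).

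Counted together, edgeR called 0 of the 4 members over all cells, where it called 0.363% of the 11566 genes tested, and 0 over T cells, where it called 0.27%. Over all cells 2 members had an unadjusted p under 0.05, as had 1808 of the 11566 genes. Over T cells 1 member had, as had 1543 of 11105 genes. DESeq2 called 1, Xcl1, in both, against 1.81 and 1.54% of all genes. With the chimera block edgeR called 2 members over all cells, Ccl5 higher and Xcl1 lower, against 9.65% of all genes (4.81% higher and 4.84% lower). Over T cells it called 3, with Ccl4 lower in addition, against 13.8% of all genes (6.88% higher and 6.94% lower). Myeloid markers, which were higher in sum in both Bcl3-/- libraries, moved with the genotype. T cells held 87.3, 95.3, 94.8 and 91.5% of Ccl3 UMIs, 91.5, 96.6, 96.1 and 87.6% of Ccl4 UMIs, and 94.4% or more of Ccl5 and Xcl1 UMIs, and the part of other cells in the differences over all cells was not tested. The share of thinned T cells with a UMI differed by 0.262 percentage points for Ccl3, 0.391 for Ccl4, 0.305 for Ccl5 and -0.127 for Xcl1 (Bcl3-/- minus WT). An exact permutation test, 2-sided, gave p = 0.667, 0.333, 0.667 and 0.333, where 0.333 is the smallest p that 2 against 2 libraries allow.

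**Figure D5:**
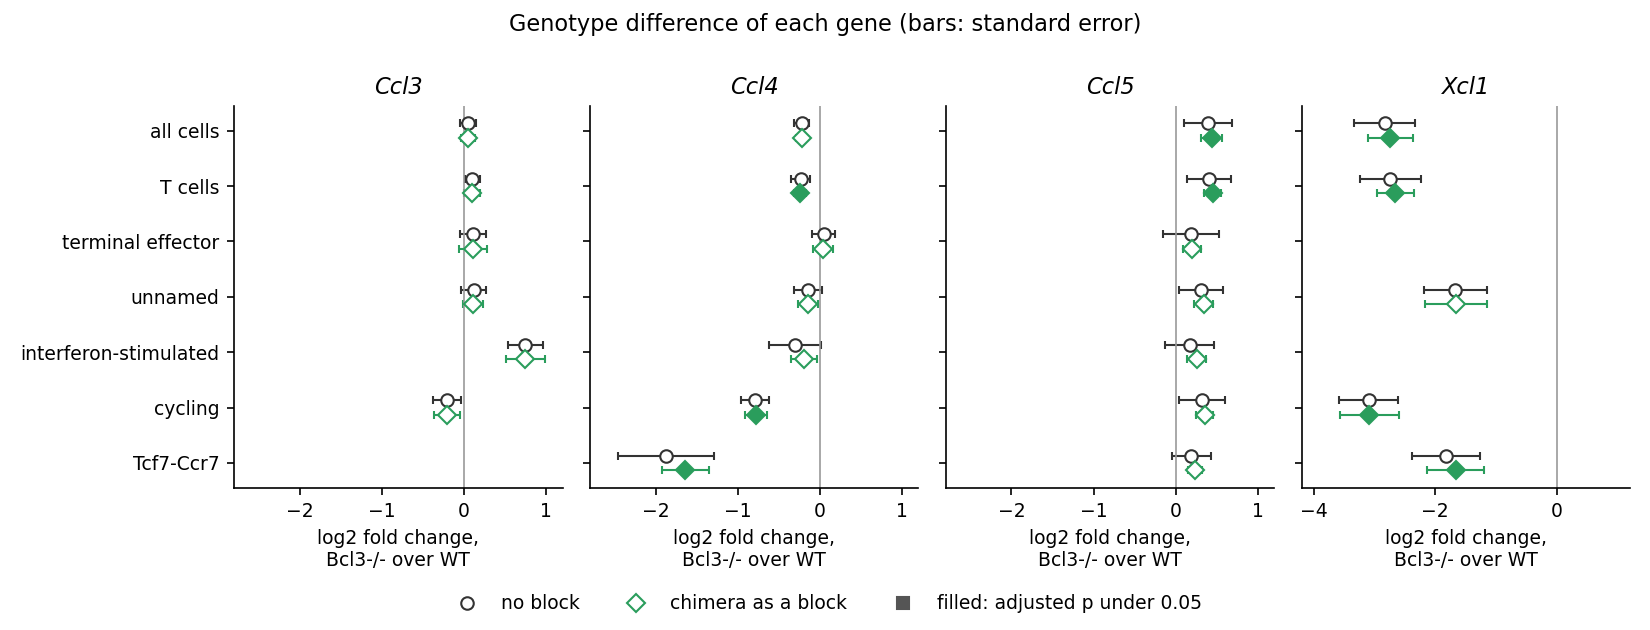
log2 fold change of each member, Bcl3-/- over WT, over all cells, over T cells and within each class, from edgeR without a block (circles) and with the chimera as a block (diamonds), bars for the standard error and filled symbols for an adjusted p under 0.05. Xcl1 lies at -3.09 to -1.66 wherever it was tested, Ccl5 lies above 0 in each class, and Ccl4 moves from 0.05 in terminal effectors to -1.88 in Tcf7-Ccr7 cells.

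Within the 5 classes, 17 tests of a member could be made, since Xcl1 was too low for a test in terminal effectors and interferon-stimulated cells and Ccl3 in Tcf7-Ccr7 cells. edgeR without the block called none of them, and with the block it called 4, all lower in Bcl3-/-. The share of all genes called was 0.281% in unnamed cells, 0.204% in interferon-stimulated cells and 0.925% in terminal effectors, and with the block 6.12, 1.25 and 6.04%. The values called with the block were, in cycling cells, Xcl1 (-3.09, SE 0.486, adjusted p 0.0521, and 0.00457 with the block) and Ccl4 (-0.79, SE 0.170, adjusted p 0.178, and 0.00916 with the block, but -0.33 and adjusted p 0.518 in cells gated by markers), where 0.258% of all genes were called, and 2.38% with the block (0.968% lower). For Ccl4 both Bcl3-/- libraries were below both WT libraries there, at 56.9 and 60.1 against 82.3 and 118 CPM, as for 16.3% of all genes in this class. In Tcf7-Ccr7 cells, where 0.699% of all genes and 2.41% with the block (0.947% lower) were called, Xcl1 had a log2 fold change of -1.82 (SE 0.560, adjusted p 0.231, and 0.0200 with the block) and Ccl4 one of -1.88 (SE 0.583, adjusted p 0.239, and 1.06e-06 with the block). The Ccl4 value is that of WT1: without this library it was 0.12 (adjusted p 0.98), and in cells gated by markers it was -0.075 (adjusted p 0.887). Ccl4 in this class was at 0.204 of WT in chimera 1 and at 0.838 of WT in chimera 2. Xcl1 in this class was at 0.132 of WT in chimera 1 and at 0.733 of WT in chimera 2, and without WT1 it could not be tested. With the cells that held a Cd4 UMI left out, the blocked adjusted p in this class was 0.0381 for Ccl4 and 0.246 for Xcl1. In unnamed cells Xcl1 had -1.67 (SE 0.516, adjusted p 0.329, and 0.0598 with the block), in interferon-stimulated cells Ccl3 had 0.75 (SE 0.209, adjusted p 0.399, and 0.150 with the block), and in terminal effectors no member had an adjusted p under 0.343 in either fit. A test of whether the genotype effect differs between the unnamed class and each other class called 0 of 16 values for the members. Of all genes it called 0.0317% (Tcf7-Ccr7), 0% (interferon-stimulated), 0.476% (terminal effector) and 0.0846% (cycling). The 16 include the 3 values that were too low for a test within their class. Of the others the smallest adjusted p was 0.770, for Ccl4 in Tcf7-Ccr7 cells (-1.78, SE 0.687).

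The receptor genes of these chemokines that are named here were all below 10 CPM. Ccr1, which binds Ccl3 and Ccl5, was at 4.56, 3.43, 6.28 and 5.90 CPM with 10.2 to 20.4% of UMIs in T cells, Ccrl2, a receptor-like protein, at 5.70, 8.79, 5.46 and 6.27 CPM, Ccr3 at 0.396, 0.416, 1.56 and 0.976 CPM, and Xcr1, the receptor of Xcl1, at 0.891, 0.260, 0.229 and 1.30 CPM. Ccr4 and Ackr2 were below the filter on low counts. edgeR called 0 of the 5 receptor genes tested with or without the block, and DESeq2 called 0. Of all genes, 0.363% were called without the block, 9.65% with it and 1.81% by DESeq2. An unadjusted p under 0.05 was found for 2 of the 5 and for 1808 of 11566 genes. Their median log2 fold change was 0.35, against 0.0074 for all genes.

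Of 34 other chemokine genes, 33 were in the counts and 12 could be tested, with a median log2 fold change of -0.18. edgeR called 0 of them without the block, where 7 had an unadjusted p under 0.05 and DESeq2 called 3, and with the block 2 were higher and 3 lower. Of all genes, 0.363% were called without the block, 1.81% by DESeq2, and 4.81% higher and 4.84% lower with the block. Without the block, 1808 of 11566 genes had an unadjusted p under 0.05. Of those with at least 10 CPM in 2 libraries, Ccl6, a myeloid chemokine and the most abundant of the list, was at 49.1, 42.5, 73.5 and 52.9 CPM (log2 fold change with the block 0.44, adjusted p 0.00618), and Cxcl9, an interferon-induced ligand of Cxcr3, at 14.3, 18.9, 8.30 and 9.71 CPM (-0.89, adjusted p 0.00221). Only 17.0 to 26.9% of Ccl6 UMIs and 14.3 to 20.5% of Cxcl9 UMIs were in T cells.

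The remaining 3 lists hold genes that are used together with these chemokines. Of 8 secreted partners tested, 2 had an unadjusted p under 0.05, as had 1808 of 11566 genes, and the median was -0.063. edgeR called 0 (0.363% of all genes) and DESeq2 0 (1.81% of all genes). With the block edgeR called 1 (9.65% of all genes), Ltb (lymphotoxin beta), which was lower at 587 and 798 against 807 and 1142 CPM (-0.50, adjusted p 0.000505). Gzmb (granzyme B), the most abundant, was at 1714, 1638, 1450 and 1440 CPM (-0.23, adjusted p 0.412). Of 11 genes of the acute antigen-receptor response, 3 had an unadjusted p under 0.05 (1808 of 11566 over all genes) and DESeq2 called 2 (1.81% of all genes). edgeR called 1 (0.363% of all genes), Cd69, an early activation marker, at 41.3 and 43.6 CPM in WT against 24.0 and 25.2 CPM in Bcl3-/- (-0.80, adjusted p 0.0269), and with the block (9.65% of all genes) also Tnfrsf9, at 40.6 and 59.998 against 24.0 and 36.8 CPM (-0.75, adjusted p 8.7e-05). Irf8, the most abundant of this list, was at 93.4, 94.2, 85.4 and 73.4 CPM (-0.25, adjusted p 0.353), and the median was -0.25. Of 12 genes of NF-kappaB and IkappaB, 3 had an unadjusted p under 0.05 (1808 of 11566 over all genes), and the median was -0.13. edgeR called 0 and DESeq2 1, against 0.363 and 1.81% of all genes. With the block edgeR called 4, all lower, where 4.84% of all genes were lower. They were Nfkb2 (-0.57, adjusted p 0.000990), Relb (-0.44, adjusted p 0.00927), Nfkbia (-0.35, adjusted p 0.00480), the inhibitor IkappaBα and the most abundant gene of the list, and Bcl3 (-0.31, adjusted p 0.0201).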

How the data were processed

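UMI counts were deposited by the authors as raw 10x Genomics 3′ gene-by-barcode tables, and per the submitters' processing notes they were made with bcl2fastq 2.17 and Cell Ranger 2.2.0 on mm10. A barcode was kept as a cell when 500 or more genes were detected and no more than 10% of its UMIs were mitochondrial. For the latter, 56, 62, 14 and 44 barcodes (WT1, WT2, KO1, KO2) were removed, and 94.4 to 95.3% of UMIs were in cells. Intervals are 95% Poisson or exact binomial and cover counting error only.

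Each library was clustered with Seurat 5.3.0 (2000 variable genes without the members, 15 principal components, 20 neighbours, resolution 0.8). The classes hold no cluster below 1% of its library. A cluster was named from a marker list when at least 3 markers were 2-fold higher and in at least 10% of its cells, with 1 of them among its 10 leading genes. This rule, and the merging of the memory precursor and naive lists, were set after the clusters were seen. Doublets were not removed, and co-detection was repeated without the top 5% of cells by UMIs.

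UMIs were summed per library and class and fitted with edgeR 4.0.16 (TMM, filterByExpr, quasi-likelihood, Benjamini-Hochberg adjusted p under 0.05 over all genes tested), without and with the chimera as a block. The library titles carry a number but name no chimera. Cells of both genotypes were sorted from the same animal, so libraries of 1 number were taken as a pair. The calls with the block rest on this pairing. The blocked fit leaves few degrees of freedom per gene, so its p-values lean on a spread shared across genes. The deviations of WT1 from WT2 and of KO1 from KO2 had r = 0.291 over 6863 genes. DESeq2 1.42.0, other scalings, filters and clusterings were alternatives. The fit was also run on simulated counts with known changes, whose outcome is not reported here. R 4.3.3 and Python 3.11.15 were used. Named genes were the members, the 5 genes most like each, the receptors, and of each list the genes called with at least 10 CPM in 2 libraries and the most abundant gene. A receptor gene and a coding sequence are not reported here. The members and lists were chosen with earlier results of these data known.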

Additional observations from a re-analysis of the deposited data

Results flagged for a closer look

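Clusters named myeloid, which lie outside the T cell comparisons, held more Ccl3 in all 4 libraries, and more Ccl4 in WT1, WT2 and KO2, than B cell-like cells of the same library, with 95% Poisson intervals that did not overlap. Ccl3 was at 93.9 CPM in myeloid clusters of WT1 against 14.6 CPM in B cell-like cells, at 29.3 against 0 CPM in WT2, at 31.9 against 6.34 CPM in KO1 and at 50.6 against 10.9 CPM in KO2. Ccl4 was at 183 against 26.3 CPM in WT1, at 63.8 against 3.31 CPM in WT2 and at 195 against 10.9 CPM in KO2, while in KO1 (35.5 against 27.5 CPM) the intervals overlapped. In WT1 and KO2 part of these values came from few cells. Ccl3 in WT2 and KO1 was spread more widely, over 17 of 146 and 26 of 216 myeloid cells, none with 5 or more UMIs. In WT1, 2 of 119 myeloid cells held 5 or more Ccl3 UMIs, the highest 42 of 83 UMIs in these cells. There 4 held 5 or more Ccl4 UMIs, the highest 81 of 162. In KO2, 6 of 215 held 5 or more Ccl4 UMIs, the highest 141 of 235. Poisson intervals treat UMIs as independent and are too narrow where 1 cell holds many of them, so their separation is no test of a class difference. These clusters were not compared between the genotypes, since in KO1 and KO2 they include a cluster led by S100a8 and S100a9 that was under 1% of cells in WT1 and WT2.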

How the results depend on the processing

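Of 348 values recomputed under an alternative, 270 kept their direction and side of the threshold, or their size. The chimera block changed calls over all cells for Ccl5 (0.44) and Xcl1 (-2.74), over T cells for Ccl4 (-0.24), Ccl5 (0.45) and Xcl1 (-2.66), in Tcf7-Ccr7 cells for Ccl4 (-1.64) and Xcl1 (-1.66) and in cycling cells for Ccl4 (-0.78) and Xcl1 (-3.09), all now past the threshold, and it changed no other call of a member. It raised the genes called from 42 to 1116 over all cells and from 30 to 1535 over T cells. Xcl1 also passed over all cells with DESeq2 (-2.85) and library totals only (-2.8), and over T cells with DESeq2 (-2.76). With cells thinned to 1000 UMIs, edgeR without the block gave a smaller Xcl1 difference. It was -2.00 over all cells (adjusted p 0.216) and -1.96 over T cells (adjusted p 0.274). Genes called were 209 (DESeq2) and 80 (library totals) over all cells, and 171 (DESeq2), 9 (no low-count filter) and 17 (at most 5% mitochondrial UMIs) over T cells.

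The number of cells with a UMI, chosen after seeing the data, reversed over all cells Ccl3 (-0.00066, block -0.00092), Ccl4 (0.11, block 0.11) and Ccl5 (-0.26, block -0.23), and over T cells Ccl4 (0.13, block 0.12) and Ccl5 (-0.28, block -0.24). Nearly every T cell holds Ccl5. With the block Xcl1 passed at -1.77 over all cells and -1.68 over T cells, and 959 and 1171 genes were called. Also after seeing the data, leaving out cells with a Cd4 UMI gave Ccl4 -1.68 with the block in Tcf7-Ccr7 cells.

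Within classes, resolution 1.2 gave Xcl1 -2.10 in Tcf7-Ccr7 cells, Ccl3 -0.11 in unnamed cells, and Ccl3 1.55 and Ccl4 0.22 in interferon-stimulated cells. Members among the variable genes gave Ccl3 -0.17 and Xcl1 -4.06 in unnamed cells, Ccl4 1.02 in interferon-stimulated cells and -0.21 in terminal effectors. Gating by markers gave Ccl4 -0.075 in Tcf7-Ccr7 and -0.33 in cycling cells, which kept their direction, Ccl3 -0.26 and Ccl4 -0.41 in terminal effectors, and resolution 0.5 gave Ccl4 -0.90 and Xcl1 -3.15 in cycling cells. Of these, Ccl3 in unnamed cells and in gated terminal effectors, and Ccl4 in interferon-stimulated cells and terminal effectors, changed direction, and the others, but for those that kept their direction, came past the threshold. Ccl3 also grew with no change of direction or call. Gating moved it from 0.12 to 0.81 in unnamed cells and from -0.21 to -0.98 in cycling cells. Members among the variable genes moved it from 0.75 to 1.86 in interferon-stimulated cells. Gating by markers brought the log2 ratio of terminal effector over Tcf7-Ccr7 cells to 0.32 (Ccl3), 0.12 (Ccl4) and 0.29 (Ccl5), and that of Tcf7-Ccr7 over unnamed cells to -0.14 ± 0.830 (Xcl1), which is within its spread of 0. Co-detection of Ccl3 and Ccl4 was 1.77 without thinning and 3.51 at 500 UMIs, against 2.60 ± 0.675. The gates are wide and overlap, which brings the ratio of terminal effector over Tcf7-Ccr7 cells toward equality by construction. The cause of the other changes was not tested.

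Leaving out 1 library at a time gave, over all cells, Ccl3 -0.038 to 0.12, Ccl4 -0.31 to -0.14, Ccl5 0.069 to 0.80, Xcl1 -3.34 to -2.06 and 40 to 228 genes called. Over T cells it gave Ccl3 0.042 to 0.15, Ccl4 -0.38 to -0.10, Ccl5 0.070 to 0.83, Xcl1 -3.24 to -2.00 and 30 to 134 genes called. In Tcf7-Ccr7 cells it gave Ccl4 -2.63 to 0.12, Ccl5 -0.13 to 0.62 and, without WT2, KO1 or KO2, Xcl1 -2.37 to -1.54. Without WT1, Xcl1 could not be tested there, and within chimera 2 alone its log2 ratio was -0.45. In unnamed cells it gave Ccl3 -0.11 to 0.31, Ccl4 -0.34 to 0.073, Ccl5 0.010 to 0.67 and Xcl1 -2.17 to -1.29. In interferon-stimulated cells it gave Ccl3 0.67 to 0.90, Ccl4 -0.74 to 0.46 and Ccl5 -0.24 to 0.75. In terminal effectors it gave Ccl3 0.020 to 0.22, Ccl4 -0.044 to 0.14 and Ccl5 0.049 to 0.34. In cycling cells it gave Ccl3 -0.40 to -0.032, Ccl4 -1.02 to -0.54, Ccl5 -0.0095 to 0.74 and Xcl1 -3.90 to -2.56. For class log2 ratios it gave Ccl3 1.67 to 2.52, Ccl4 1.47 to 2.49, Ccl5 2.35 to 2.51 and Xcl1 3.72 to 4.48. For differences in the share of cells it gave Ccl3 0.0762 to 0.448, Ccl4 0.114 to 0.668, Ccl5 -0.0156 to 0.626 and Xcl1 -0.155 to -0.0993 percentage points, and for co-detection 2.33 to 2.81.

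Calls that these omissions changed, without a block, were Xcl1 without WT2 over all cells, over T cells and in Tcf7-Ccr7 cells (adjusted p 0.0136, 0.0139 and 0.000193), Ccl4 in Tcf7-Ccr7 cells without WT2, KO1 or KO2 (7.34e-16, 1.66e-07 and 0.00319), Ccl4 in interferon-stimulated cells without WT2 (0.00331) and Xcl1 in cycling cells without WT2, KO1 or KO2 (0.0129, 0.0496 and 0.00899), all lower in Bcl3-/-. A lone library left in a group is assumed to vary like the other group. Resolution 0.5 gave no Tcf7-Ccr7 class in KO1 and no terminal effector class in WT1, so those fits were not run. With 2 libraries per genotype and 12 to 160 Xcl1 UMIs per library over all cells, the size of the Xcl1 difference is imprecise.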
